A study of Mus musculus with 12 samples.

Results

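The genes described here are 7 genes of DNA repair that are known as transcriptional targets of P53: *Xpc*, *Ddb2* and *Ercc5* of nucleotide excision repair, the translesion polymerase genes *Polh* and *Polk*, the ribonucleotide reductase gene *Rrm2b*, and *Gadd45a*. They were chosen by symbol, and all 7 were found among the 24881 gene symbols of the deposited RNA sequencing table. RNA came from R1 mouse embryonic stem cells (ESCs) with FUCCI reporters, fluorescent proteins that mark the cell cycle phases, and every library was made from cells sorted in G1 phase. The 4 groups were WT and P53-/- ESCs, each grown in serum with the cytokine LIF or in 2i, a serum-free medium with LIF, the MEK inhibitor PD0325901 and the GSK3 inhibitor CHIR99021. P53-/- cells had been made with CRISPR/Cas9 directed at an exon common to the *Trp53* isoforms, and lines were grown from single sorted cells, so each P53-/- line is 1 clone. The legend of the study names clones 1 and 2 for the RNA sequencing, and which clone a library came from is not given by its label. No DNA-damaging agent is named in the labels of these libraries. Each group had 2 libraries, numbered here by their order in the table, and levels are given as FPKM (fragments per kilobase of transcript, scaled to the mapped fragments of the library). Nothing in the labels says that the libraries of a group came from separate cultures, so p-values measure the spread between libraries, which may be technical.

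P53 is a transcription factor that is stabilized by DNA damage and activates genes of arrest, cell death and repair. XPC and the DDB2 subunit of the UV-DDB complex find distorted or UV-damaged bases, after which the nuclease XPG, encoded by *Ercc5*, cuts the damaged strand on the 3′ side of the lesion. Polymerases η (*Polh*) and κ (*Polk*) copy across damaged bases at stalled forks, and P53R2 (*Rrm2b*) is a small subunit of ribonucleotide reductase that supplies dNTPs outside S phase. GADD45A is a small stress protein that binds PCNA, P21 and the kinase MTK1. Most of what is known of these genes as P53 targets comes from damaged cells, often human, and the mouse *Ddb2* gene has been described as lacking the P53 response of its human counterpart.

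In 2i *Trp53* itself had 26.8 and 33.7 FPKM with P53 intact against 7.25 and 1.88 FPKM in the P53-/- libraries, and in serum 77.6 and 75.1 against 16.8 and 3.68 FPKM. The groups did not overlap in either culture, and 1 P53-/- library in each culture kept a higher level than the other. The depth estimated from the lowest FPKM steps ran from 5.2 to 13 M fragments per library, up to a factor shared by all libraries. The 10 pluripotency markers summed to between 3217 and 4309 FPKM in every library, and none of the 10 was at 0 in both libraries of a group. The 7 primitive endoderm markers summed to at most 4.36 FPKM. The 7 fibroblast markers summed to at most 1.34 FPKM in 2i and to between 7.73 and 10.5 FPKM in serum, with 3 to 5 of the 7 at 0 in both libraries of a group. The sum in serum was almost all *Thy1*, a surface antigen gene, at 7.55 to 10.5 FPKM, while the other 6 markers, the collagen genes among them, were each at 0 to 0.183 FPKM there. Genes were tested with limma on log2(FPKM + 0.1), and genes are termed called that changed over 1.5-fold with an adjusted p under 0.1. All 7 repair genes were among the 12572 genes tested.

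The sequences before the start sites of the members that fell in P53-/- ESCs are shown here, since P53 is a DNA-binding factor and these are the stretches nearest to the starts of *Polk* and *Ercc5*. They are the 250 bases upstream of RefSeq starts on GRCm38.p6, and capitals mark an exact match to the P53 half-site consensus, a motif of 10 bases that was searched on both strands and overlaps no other motif searched. *Polk* has 2 such starts. The first, on the minus strand, is the 5′ end of the gene (chr13:96542580-96542829), the second lies inside the gene (chr13:96519188-96519437), and the *Ercc5* window is on the plus strand (chr1:44147494-44147743).
Polk, upstream start: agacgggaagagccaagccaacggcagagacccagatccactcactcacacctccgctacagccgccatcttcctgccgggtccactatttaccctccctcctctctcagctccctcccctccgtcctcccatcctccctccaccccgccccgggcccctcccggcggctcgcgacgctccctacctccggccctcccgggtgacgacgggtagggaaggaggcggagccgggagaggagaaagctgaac
Polk, internal start: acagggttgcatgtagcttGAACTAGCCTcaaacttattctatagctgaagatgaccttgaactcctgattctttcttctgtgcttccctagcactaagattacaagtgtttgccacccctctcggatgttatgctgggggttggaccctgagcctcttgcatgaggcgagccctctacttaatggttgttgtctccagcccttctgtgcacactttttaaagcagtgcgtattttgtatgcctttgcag
Ercc5: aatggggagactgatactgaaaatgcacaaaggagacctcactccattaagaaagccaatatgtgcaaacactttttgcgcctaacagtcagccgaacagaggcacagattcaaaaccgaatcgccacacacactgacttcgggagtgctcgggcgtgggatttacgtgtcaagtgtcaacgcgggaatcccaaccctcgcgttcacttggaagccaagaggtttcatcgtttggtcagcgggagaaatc

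The window of the internal *Polk* start held 1 half-site, 231 bases before that start, while the windows of the upstream *Polk* start and of *Ercc5* held none. *Gadd45a*, which was not called as lower in P53-/- cells, held 1 half-site (GGGCTAGCCC) 40 bases before its RefSeq start on the minus strand of chromosome 6, in a stretch that GENCODE M21 places within an exon of the gene. The *Polh* window held none. Of all 32851 windows of this length, 7.13% held at least 1 half-site. The RefSeq windows covered 4 of the 7 members, and *Xpc*, *Ddb2* and *Rrm2b* had no entry. These matches describe letters in a window and say nothing of binding.

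The first comparison asked whether G1-phase ESCs without P53 express less of these repair genes than WT ESCs. *Polk* was 3.72-fold lower in P53-/- 2i and 3.55-fold lower in P53-/- serum, and *Ercc5* was 2.05-fold lower in P53-/- 2i. The other 5 genes were not called in either culture, and none of the 7 was called as higher. The count was 2 of 7 lower in 2i, where 5.97% of all genes tested were called as lower. In serum it was 1 of 7 lower, where 0.883% were. The 7 genes were chosen with earlier results of these data known, so these counts are no independent evidence. On the log2 scale the median of the 7 genes was 0.26 (2i) and −0.23 (serum), against 0.02 over all genes tested in each culture. The name of P53 targets thus went with a called fall in P53-/- cells for *Polk* and *Ercc5*, and not for the other 5 genes.

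**Figure D1:**
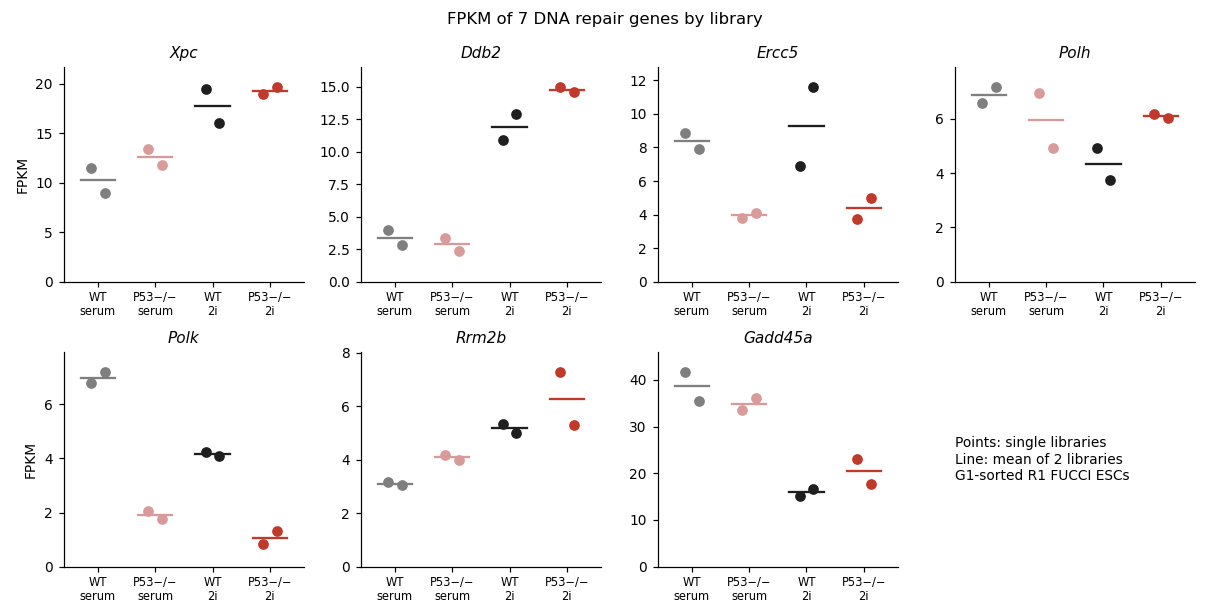
FPKM of the 7 genes in each of the 8 libraries, in 1 panel per gene with a linear axis that starts at 0; points are single libraries and lines the mean of the 2 libraries of a group. *Polk* and *Ercc5* lie lower in P53-/- than in WT in both cultures, while *Ddb2*, *Xpc*, *Rrm2b* and *Gadd45a* separate by culture.

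*Polk* lies on the minus strand of chromosome 13 of GRCm38, from 96480690 to 96542579. There it overlaps the protein-coding gene *Gm17622* on the plus strand, whose reads cannot be told apart where the counting rule is not known. *Polk* encodes the Y-family polymerase that extends primers past bulky guanine adducts. It had 4.24 and 4.08 FPKM in WT 2i against 0.831 and 1.31 FPKM in P53-/- 2i. Both P53-/- 2i libraries lay far below both WT 2i libraries, with a log2 fold change of −1.90 (SE, the standard error, 0.24, adjusted p = 0.00594 by limma). In serum it had 6.78 and 7.2 FPKM in WT and 2.05 and 1.75 FPKM in P53-/-. The serum groups were again apart, with a log2 fold change of −1.83 (SE 0.24, adjusted p = 0.0186 by limma). The difference between the effects in the cultures was −0.07 on the log2 scale, with a 95% interval from −0.85 to 0.72. P53-/- 2i was thus the lowest of the 4 groups and WT serum the highest. With the longest coding transcript of the gene, the P53-/- 2i values correspond to about 34 and 29 fragments, and with the shortest to about 5 in each library, both up to the factor shared by all libraries, so counting error is part of their spread. The call in 2i was lost in a fit of the 2i libraries alone, where the log2 fold change stayed at −1.90 and the SE was 0.29 (limma adjusted p = 0.107). The call in serum was lost without WT serum library 1 (log2 fold change −1.87, adjusted p = 0.204 by limma), WT serum library 2 (−1.78, 0.229) or P53-/- serum library 2 (−1.72, 0.16).

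*Ercc5* lies on the plus strand of chromosome 1, from 44147744 to 44181260. It had 6.92 and 11.6 FPKM in WT 2i against 3.75 and 5.01 FPKM in P53-/- 2i. The groups did not overlap, though the WT 2i libraries differed from each other by more than the P53-/- 2i libraries did, and the log2 fold change was −1.03 (SE 0.26, adjusted p = 0.0561 by limma). In serum it had 8.88 and 7.92 FPKM in WT and 3.78 and 4.11 FPKM in P53-/-. These groups did not overlap either. The log2 fold change in serum was −1.07 (standard error 0.26), which did not pass the test (limma adjusted p = 0.174). The effects in the cultures differed by 0.04 on the log2 scale, with a 95% interval from −0.81 to 0.88, so a call in 2i and none in serum does not show that the cultures differed. The call in 2i depended on single libraries. It was lost without WT 2i library 2 (log2 fold change −0.66, adjusted p = 0.146 by limma), P53-/- 2i library 1 (−0.83, 0.212) or library 2 (−1.24, 0.127), and without WT serum library 1 (−1.03, 0.135) or library 2 (−1.03, 0.136), which enter through the shared spread. It was also lost in a fit of the 2i libraries alone, where the log2 fold change stayed at −1.03 and the SE was 0.34 (limma adjusted p = 0.227).

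**Figure D2:**
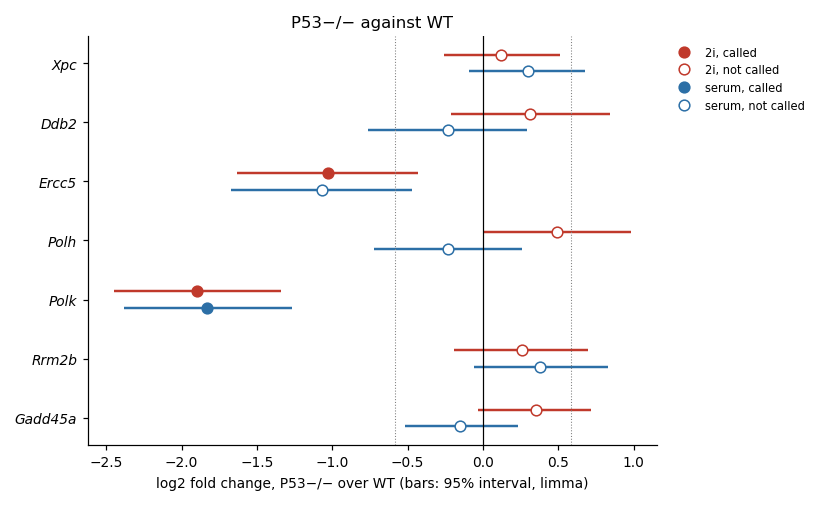
Log2 fold change of P53-/- over WT for the 7 genes in 2i (red) and serum (blue), with 95% intervals from limma and dotted lines at a fold change of 1.5; filled points are called. *Polk* has both points at or below −1.83, *Ercc5* has both near −1, and none of the other 5 genes is called, with the lower bound of *Polh* in 2i at 0.00 after rounding.

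Neither gene of damage recognition was called in P53-/- ESCs. *Xpc*, on the minus strand of chromosome 6 from 91489305 to 91515888, had 19.5 and 16.1 FPKM in WT 2i against 19 and 19.7 FPKM in P53-/- 2i. Its groups overlapped in 2i, with a log2 fold change of 0.12 and a 95% interval from −0.26 to 0.51 (limma adjusted p = 0.698). In serum *Xpc* had 11.5 and 9.02 FPKM in WT and 13.4 and 11.8 FPKM in P53-/-, a log2 fold change of 0.30 with an interval from −0.09 to 0.68 (limma adjusted p = 0.536). The P53-/- serum libraries were both the higher ones, and the lower bounds of the intervals were −0.26 (2i) and −0.09 (serum).

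*Ddb2*, on the minus strand of chromosome 2 from 91211572 to 91236982, had 10.9 and 12.9 FPKM in WT 2i against 15 and 14.6 FPKM in P53-/- 2i. The P53-/- 2i libraries were the higher pair, with a log2 fold change of 0.31 and a 95% interval from −0.21 to 0.84 (limma adjusted p = 0.441). In serum it had 3.98 and 2.84 FPKM in WT and 3.39 and 2.38 FPKM in P53-/-, which overlapped, with a log2 fold change of −0.23 and an interval from −0.76 to 0.29 (limma adjusted p = 0.74). The difference between cultures, 0.55 on the log2 scale, was not called (95% interval −0.20 to 1.29, limma adjusted p = 0.508). *Ddb2* overlaps *Acp2* on the other strand, which was not called in either culture (log2 fold changes −0.60 in 2i and −0.22 in serum) and was looked up after the values of *Ddb2* were seen.

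*Polh*, on the minus strand of chromosome 17 from 46171355 to 46202645, encodes the polymerase that copies UV dimers accurately. It had 4.93 and 3.76 FPKM in WT 2i against 6.16 and 6.02 FPKM in P53-/- 2i. The P53-/- 2i libraries were both above WT, with a log2 fold change of 0.49 (SE 0.21, adjusted p = 0.197 by limma). In serum it had 6.58 and 7.17 FPKM in WT and 6.96 and 4.93 FPKM in P53-/-, and the groups overlapped (log2 fold change −0.23, adjusted p = 0.73 by limma). *Polh* was the member with the largest difference between cultures in the P53 effect, 0.72 on the log2 scale, which had an unadjusted p of 0.0442 in limma and was not called (95% interval 0.02 to 1.41, adjusted p = 0.366). None of the 7 genes was called for this difference, where 0.207% of all genes tested were, and *Polh* was the one with an unadjusted p under 0.05.

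The pair of translesion polymerases therefore stood in different proportions in the genotypes. FPKM is scaled by length, but the transcript lengths used are not known, so ratios of different genes are best compared between groups. *Polk* was at 103% and 100% of the FPKM of *Polh* in the WT serum libraries and at 29.5% and 35.6% in P53-/- serum. In 2i it was at 86.1% and 109% of *Polh* in WT and at 13.5% and 21.7% in P53-/-. By FPKM, WT cells held about as much *Polk* as *Polh*, and the 4 P53-/- libraries held at most 35.6% as much.

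*Rrm2b*, on the minus strand of chromosome 15 from 37923952 to 37961318, had 5.35 and 5.01 FPKM in WT 2i against 7.28 and 5.28 FPKM in P53-/- 2i. The groups overlapped, with a log2 fold change of 0.26 and a 95% interval from −0.19 to 0.70 (limma adjusted p = 0.453). In serum it had 3.15 and 3.05 FPKM in WT and 4.19 and 3.97 FPKM in P53-/-. The P53-/- libraries were both higher there, and the log2 fold change of 0.38 was not called (95% interval −0.06 to 0.83, limma adjusted p = 0.49). In GENCODE M21 *Rrm2b* overlaps a processed pseudogene on its own strand and an antisense gene, and reads of these cannot be told apart from its own where the counting rule is not known.

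*Gadd45a*, on the minus strand of chromosome 6 from 67035096 to 67037457, had 15.1 and 16.7 FPKM in WT 2i against 23.1 and 17.6 FPKM in P53-/- 2i. The P53-/- libraries were above WT in 2i, with a log2 fold change of 0.35 and a 95% interval from −0.03 to 0.72 (limma adjusted p = 0.231). In serum it had 41.7 and 35.5 FPKM in WT and 33.6 and 36 FPKM in P53-/-, which overlapped (log2 fold change −0.15, interval −0.52 to 0.23, limma adjusted p = 0.778). The gene overlaps the non-coding gene *E230016M11Rik* on the other strand. The limit on reads given for *Rrm2b* holds here and for *Ddb2* as well. The lower bound of the 95% interval of *Gadd45a* in serum was −0.52 on the log2 scale, where the log2 fold change of *Polk* was −1.83.

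For *Xpc*, *Ddb2*, *Rrm2b* and *Gadd45a* the log2 differences by culture were larger in size than those by genotype. The second comparison asked how the levels differed between 2i and serum, and in WT ESCs 6 of 7 genes were called, 3 higher and 3 lower in 2i. Culture changed much of the transcriptome, and 55.7% of all genes tested were called in this comparison (27.2% higher, 28.6% lower), so the number called is not a feature of these genes. *Ddb2*, *Xpc* and *Rrm2b* were higher in 2i, and *Gadd45a*, *Polk* and *Polh* were lower. In P53-/- ESCs 5 of 7 were called, 3 higher and 2 lower, with 58.2% of all genes (28% higher, 30.1% lower), and they were the same genes in the same directions without *Polh*. These comparisons share libraries with those of genotype.

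*Ddb2* had the largest difference, with WT 2i 3.46-fold above WT serum (log2 fold change 1.79, SE 0.23, adjusted p = 0.000396 by limma). Without P53 it was 5.06-fold higher in 2i (log2 fold change 2.34, SE 0.23, adjusted p = 0.000105 by limma). Every 2i library had at least 10.9 FPKM and every serum library at most 3.98 FPKM, whatever the genotype. Its partner *Ddb1*, the adaptor that links DDB2 to the CUL4 ubiquitin ligase, was far more abundant, with 228 to 377 FPKM over the libraries. *Ddb1* was 0.42 higher in WT 2i than in WT serum on the log2 scale, under the fold threshold. *Ddb2* was therefore at 1.04% to 1.44% of the FPKM of *Ddb1* in serum and at 3.13% to 4.25% in 2i.

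*Xpc* was 1.73-fold higher in 2i in WT (log2 fold change 0.79, SE 0.17, adjusted p = 0.00443 by limma) and 1.53-fold higher in P53-/- (log2 fold change 0.62, adjusted p = 0.0131 by limma). The call in P53-/- was lost without P53-/- serum library 2, where the log2 fold change was 0.52, and with a pseudocount of 1 (0.58). Its partner *Rad23b*, which stabilizes XPC, had a log2 fold change of −0.57 in WT 2i against WT serum (limma adjusted p = 0.00275), just under the fold threshold. *Ercc5* did not differ detectably by culture, with a log2 fold change of 0.10 in WT (95% interval −0.50 to 0.69) and 0.13 in P53-/- (−0.47 to 0.73). *Ercc1* and *Ercc4*, which encode the nuclease that cuts on the 5′ side of the lesion, were higher in 2i than in serum in WT, by 1.08 (limma adjusted p = 0.00176) and 0.72 (0.0261) on the log2 scale.

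*Polk* was 1.66-fold lower in 2i than in serum in WT (log2 fold change −0.73, SE 0.24, adjusted p = 0.0296 by limma) and 1.75-fold lower in P53-/- (−0.80, SE 0.24, adjusted p = 0.02 by limma). The call in WT was lost without WT serum library 1 (−0.78, limma adjusted p = 0.101) or library 2 (−0.69, 0.141), and that in P53-/- without P53-/- 2i library 1 (−0.51, 0.101). *Polh* was 1.58-fold lower in 2i in WT (log2 fold change −0.66, SE 0.21, adjusted p = 0.0271 by limma), while in P53-/- its log2 fold change was 0.05 (95% interval −0.44 to 0.54). The call of *Polh* was lost without WT serum library 2 (−0.60, limma adjusted p = 0.149) or WT 2i library 2 (−0.47, 0.134). With a pseudocount of 1 in place of 0.1, the fold change fell short of 1.5 for *Polh* in WT (−0.57 on the log2 scale) and for *Polk* in P53-/- (−0.50).

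**Figure D3:**
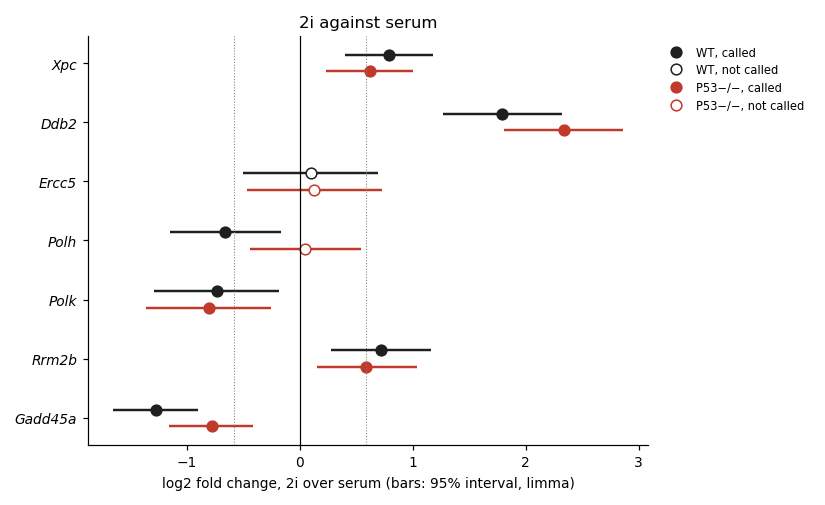
Log2 fold change of 2i over serum for the 7 genes in WT (black) and P53-/- (red), with 95% intervals from limma and dotted lines at a fold change of 1.5; filled points are called. *Ddb2* lies farthest to the right at 1.79 and 2.34, *Gadd45a* farthest to the left in WT at −1.27, and *Ercc5* near 0.

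*Rrm2b* was 1.65-fold higher in 2i than in serum in WT (log2 fold change 0.72, SE 0.19, adjusted p = 0.0124 by limma). In P53-/- it was 1.51-fold higher (log2 fold change 0.59, adjusted p = 0.0269 by limma), a call that was lost without P53-/- serum library 2 (0.55) or P53-/- 2i library 1 (0.37, limma adjusted p = 0.161), and with a pseudocount of 1 (0.51). Its paralog *Rrm2*, the small subunit of S phase, went the other way. *Rrm2* had 315 FPKM in both WT serum libraries and 52.5 and 68.4 FPKM in the WT 2i libraries, with a log2 fold change of −2.39 (SE 0.15, adjusted p = 2.85e-05 by limma), and the large subunit gene *Rrm1* had one of −0.65 (limma adjusted p = 0.00459). The FPKM of *Rrm2b* was 0.999% and 0.966% of that of *Rrm2* in WT serum and 10.2% and 7.32% in WT 2i. In P53-/- it was 1.65% and 1.52% in serum and 8.92% and 7.23% in 2i. By FPKM, *Rrm2* remained the main small subunit transcript in all 8 libraries.

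*Gadd45a* was 2.42-fold lower in 2i than in serum in WT (log2 fold change −1.27, SE 0.16, adjusted p = 0.0004 by limma) and 1.72-fold lower in P53-/- (log2 fold change −0.78, SE 0.16, adjusted p = 0.0038 by limma). Its paralogs, which encode related stress proteins, were higher in 2i. *Gadd45b* had 5.4 and 5.2 FPKM in WT serum and 29.2 and 26.5 FPKM in WT 2i (log2 fold change 2.37, SE 0.18, adjusted p = 5.27e-05 by limma). *Gadd45g* had 0.864 and 0.451 FPKM in WT serum and 5.12 and 4.29 FPKM in WT 2i (log2 fold change 2.72, adjusted p = 0.00907 by limma). By FPKM, *Gadd45a* was thus the most abundant member of the family in serum and *Gadd45b* in 2i. With loss of P53 in 2i, *Gadd45b* rose from these values to 44.9 and 45.3 FPKM (log2 fold change 0.70, SE 0.18, adjusted p = 0.0629 by limma), while in serum its log2 fold change was −0.29 (limma adjusted p = 0.586). The difference between these effects, 0.98 on the log2 scale, was not called (limma adjusted p = 0.2), and *Gadd45g* was not called in either culture.

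**Figure D4:**
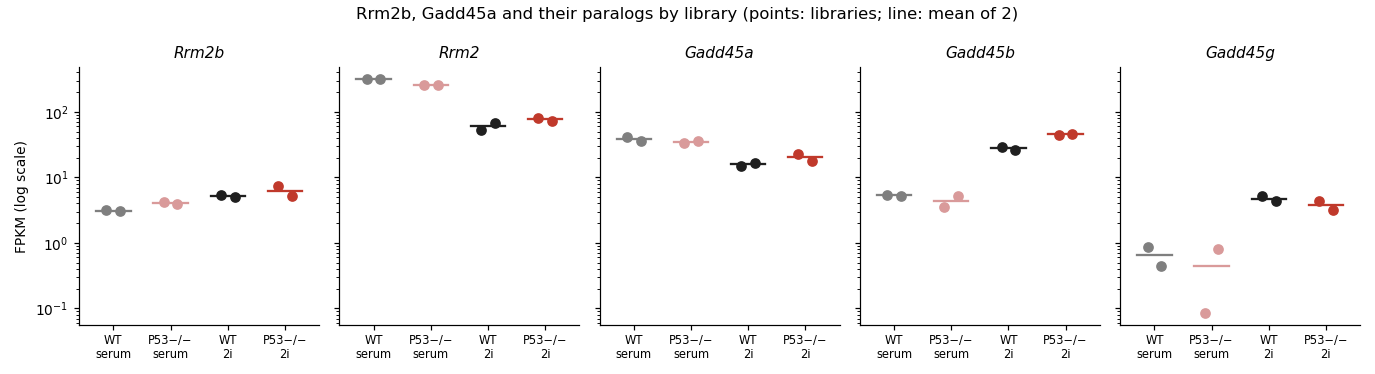
FPKM of *Rrm2b*, *Gadd45a* and their paralogs in each library, on a log axis shared by the 5 panels; points are single libraries and lines the mean of 2. *Rrm2* drops from 315 FPKM in WT serum to between 52.5 and 68.4 in WT 2i while *Rrm2b* rises, and *Gadd45b* and *Gadd45g* are higher in 2i while *Gadd45a* is lower.

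Markers of other cell cycle phases moved with culture in these G1-sorted libraries. The 10 G2/M markers summed to between 825 and 829 FPKM in WT serum, 803 and 832 in P53-/- serum, 316 and 349 in WT 2i, and in P53-/- 2i between 429 and 513. The 7 S-phase markers summed to between 646 and 666 FPKM in serum, to 397 and 407 in WT 2i, and to 508 and 595 in P53-/- 2i. In P53-/- 2i 4 of the 10 G2/M markers and 1 of the 7 S-phase markers were called as higher than in WT 2i. Of all genes tested, 4.36% were called as higher in that comparison. The part of these shifts in the levels of the repair genes was not tested, and fewer cells of a phase and less RNA per cell cannot be told apart in such libraries.

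The order of the levels differed between the groups. In WT serum *Gadd45a* was highest with 38.6 ± 4.44 FPKM (SD, n = 2), followed by *Xpc* with 10.3 ± 1.77, *Ercc5* with 8.4 ± 0.682, *Polk* with 6.99 ± 0.292, *Polh* with 6.87 ± 0.414, *Ddb2* with 3.41 ± 0.809 and *Rrm2b* with 3.1 ± 0.0747. The libraries of *Polk* and *Polh* and those of *Ddb2* and *Rrm2b* overlapped, so these neighbours were not separated. In WT 2i *Xpc* (17.8 ± 2.45 FPKM) and *Gadd45a* (15.9 ± 1.17) led without being separated, followed by *Ddb2* (11.9 ± 1.4) and *Ercc5* (9.27 ± 3.33), which overlapped, by *Rrm2b* (5.18 ± 0.243), and by *Polh* (4.34 ± 0.831) and *Polk* (4.16 ± 0.117), which overlapped.

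In P53-/- serum *Gadd45a* (34.8 ± 1.72 FPKM, SD, n = 2) and *Xpc* (12.6 ± 1.14) led again, and *Polk* (1.9 ± 0.211) was the lowest member, below *Ddb2* (2.89 ± 0.715). In P53-/- 2i *Gadd45a* (20.4 ± 3.87) and *Xpc* (19.3 ± 0.492) were not separated, and *Polk* was the lowest at 1.07 ± 0.337 FPKM, below *Ercc5* at 4.38 ± 0.886. *Rrm2b* and *Ercc5* overlapped in P53-/- serum, as did *Rrm2b* and *Polh* in P53-/- 2i. *Polk* stood above 33.1% of the genes tested in WT 2i and above 12% in P53-/- 2i.

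The fall of *Polk* and *Ercc5* was set beside other genes of the same and of related pathways, from lists written by hand. In 2i 4.36% of all genes tested were called as higher and 5.97% as lower. Of the 28 other genes of nucleotide excision repair none was called as lower in P53-/- in either culture, and *Gtf2h2*, a subunit of the helicase complex TFIIH, was called as higher in 2i (log2 fold change 0.60, adjusted p = 0.0936 by limma). The median of this list was 0.13 on the log2 scale in 2i and 0.05 in serum. Of the 15 other genes of translesion synthesis that were tested, *Rev1*, which encodes the polymerase that recruits the others, fell in P53-/- 2i (log2 fold change −1.09, SE 0.23, adjusted p = 0.0356 by limma). *Mad2l2*, a subunit of polymerase ζ, rose (0.81, limma adjusted p = 0.048). In 2i *Rev1* had 11.4 and 19.6 FPKM in WT against 6.92 and 6.99 FPKM in P53-/-, and 20.2 and 20.7 FPKM in WT serum against 13.9 and 12.2 in P53-/- serum, where it was not called (limma adjusted p = 0.349). *Poli*, the nearest relative of *Polh*, was not called in either culture.

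Of 15 other genes of dNTP supply, *Dut*, which removes dUTP, was called as higher in P53-/- 2i (log2 fold change 0.78, adjusted p = 0.0245 by limma). *Rrm2* was not called (0.37 in 2i, limma adjusted p = 0.173). Of 20 base excision repair genes, *Neil3* was called as higher and *Apex1* as lower. Of 22 homologous recombination genes, 3 were called as higher, *Nbn* and *Eme1* among them, and *Mus81* as lower, and of 10 end joining genes *Nhej1* and *Prkdc* were called as lower. None of the 8 mismatch repair or 15 Fanconi anemia genes was called. In serum no gene of these repair lists was called, at a background of 1.02% of all genes. The medians of the repair lists lay between −0.14 and 0.17 on the log2 scale in 2i.

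The 20 P53 targets outside repair, genes of arrest, cell death and feedback, gave a different count. Lower calls in P53-/- cells were made for 15 of the 19 tested in 2i and for 14 in serum, and none was called as higher. The background share of lower calls was 5.97% in 2i and 0.883% in serum. This list was chosen with earlier results of these data known and is no independent evidence of its direction. On the log2 scale its median was −2.24 (2i) and −1.83 (serum). *Cdkn1a*, which encodes the P21 protein that GADD45A binds, had log2 fold changes of −2.24 (limma adjusted p = 0.00218) and −2.18 (0.00601). The largest falls were those of *Eda2r*, a death receptor gene, with −8.25 in 2i and −7.71 in serum, and 1 of its P53-/- 2i libraries was listed at 0, so that the size depends on the pseudocount. The changes of *Polk*, −1.90 and −1.83, were thus near the median of this list, while those of *Xpc*, *Ddb2*, *Polh*, *Rrm2b* and *Gadd45a* lay between −0.23 and 0.49.

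**Figure D5:**
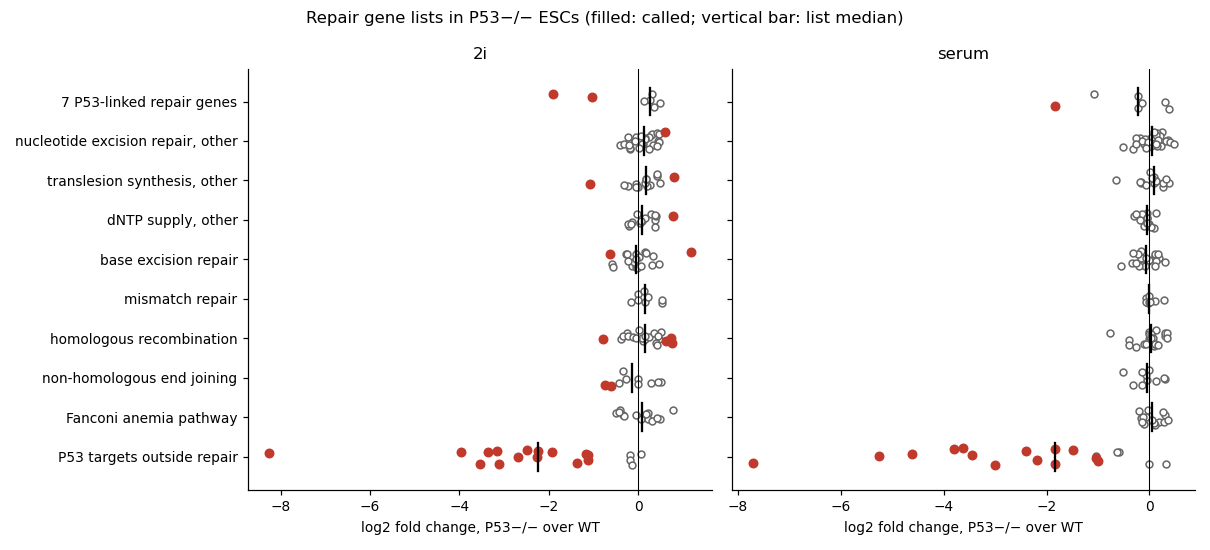
Log2 fold change of P53-/- over WT for each tested gene of the 7 repair genes and of the hand-written lists, in 2i and in serum; each point is 1 gene and filled points are called. The repair lists have medians near 0, and the P53 targets outside repair have medians of −2.24 in 2i and −1.83 in serum.

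By culture, the counts of the related pathways stand beside 27.2% of all genes called as higher and 28.6% as lower in 2i for WT ESCs, with 28% higher and 30.1% lower for P53-/- ESCs. Of the 15 other translesion synthesis genes, 9 were lower and none higher in WT 2i than in WT serum, with a median log2 fold change of −0.69. In P53-/- ESCs 7 of them were lower and 2 were higher. Of the 28 other nucleotide excision repair genes, 5 were higher and 5 lower in WT, and 5 were higher and 4 lower in P53-/-. Of the 22 homologous recombination genes, 2 were higher and 10 lower in WT, and 2 were higher and 9 lower in P53-/-. Of the 20 base excision repair genes, 8 were higher and 3 lower in WT, and 8 were higher and 1 lower in P53-/-. Of the 15 dNTP supply genes, 3 were higher and 5 lower in WT, and 5 were higher and 4 lower in P53-/-. None of the 8 mismatch repair genes was higher and 3 were lower in each genotype. Of the 10 end joining genes, 1 was higher in each genotype, with 2 lower in WT and 3 in P53-/-. Of the 15 Fanconi anemia genes, 3 were higher and 4 lower in WT, and 2 were higher and 3 lower in P53-/-.

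The profiles nearest to those of *Polk* and *Ercc5* over the 8 libraries were searched among 11489 genes with a mean of at least 1 FPKM, by the root mean square difference of log2 values centred on their mean. The nearest to *Polk* was *Mdm2* (0.21), the ubiquitin ligase gene that P53 itself activates, followed by *Mdm4* (0.30) and *Susd6* (0.30). *Mdm2* had 79.7 and 69.3 FPKM in WT serum, 21.8 and 19.8 in P53-/- serum, 42.8 and 54.5 in WT 2i, while P53-/- 2i had 12.8 and 12.3. Like *Polk*, it was highest in WT serum and lowest in P53-/- 2i. The nearest to *Ercc5* were *Rnase4* (0.15), *Rbl2* (0.15), which encodes the pocket protein P130, and *Lpar6* (0.17). *Rbl2* had 3.01 and 2.72 FPKM in WT serum, 1.45 and 1.15 in P53-/- serum, 2.62 and 3.33 in WT 2i, while P53-/- 2i had 1.24 and 1.57. The points share libraries, and likeness of profile is a description over 8 libraries.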

How the data were processed

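The deposited table holds FPKM values for 24881 gene symbols in 8 libraries of total RNA depleted of ribosomal RNA. Per the submitters' processing notes, STAR, Cufflinks and DESeq2 and the mm9 build were used, with no roles or versions given. The authors' FPKM values were taken as deposited. Each of 4 column names headed 2 columns, so libraries were numbered by order and are not paired. The P21 knockout libraries and the WT libraries listed with them were not analysed here.

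log2(FPKM + 0.1) was fitted in R 4.3.3 with limma 3.58.1 (4 groups, trend) for the 12572 genes whose FPKM averaged 0.5 or more. P-values were adjusted by Benjamini-Hochberg over all of them, and calls needed a value under 0.1 and a change over 1.5-fold. Fold changes on this scale understate the change of low genes. The script was tested on simulated data. Gene positions came from GENCODE M21 (GRCm38), not the files' build, and promoters from RefSeq (GRCm38.p6). Depth was estimated from the steps between low FPKM values, and only 58% to 69.4% of these lay within 0.1 of a step, so no reads were recovered for a count test.

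The members and lists were chosen with earlier results of these data known. Named genes were the members, *Trp53*, up to 3 called genes with the largest change per list and comparison, partners and paralogs of the members, and the 3 nearest profiles of each called member. Alternatives varied the pseudocount, filter, scaling, samples fitted, trend, threshold, small RNA genes and the libraries.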

Additional observations from a re-analysis of the deposited data

How the results depend on the processing

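No paired analysis was possible because the columns carry no replicate numbers. The count of members called in P53-/- 2i (2) was 0 in the fit of the 2i libraries alone and 1 at an adjusted p under 0.05. The count by culture in P53-/- (5) was 2 with a pseudocount of 1, without *Xpc*, *Polk* and *Rrm2b*, and that in WT (6) was 5, without *Polh*. Leaving out each library in turn gave 1 to 2 calls in 2i, 0 to 1 in serum, 4 to 6 by culture in WT and 3 to 5 by culture in P53-/-, where the lone library of a group is assumed to vary like the others. The difference of the P53 effect between cultures turned sign for *Polk* with a pseudocount of 1 (0.13) and for *Ercc5* with quantile normalization (−0.06). With a library left out, uncalled log2 values that turned sign ranged from −0.37 to 0.23 (*Polk*), −0.33 to 0.41 (*Ercc5*), −0.35 to 0.00 (*Xpc*) and −0.36 to 0.10 (*Rrm2b*) for that difference. For P53-/- against WT they ranged from −0.02 to 0.26 for *Xpc* in 2i, and in serum from −0.48 to 0.01 for *Ddb2* and −0.47 to 0.02 for *Polh*. For 2i against serum, *Ercc5* ranged from −0.27 to 0.47 in WT and −0.07 to 0.34 in P53-/-, and *Polh* from −0.19 to 0.30 in P53-/-. The causes were not tested. With a library left out, *Polk* in 2i was called in 8 of 8 fits, from −2.19 to −1.60, but it was not called in the fit of the 2i libraries alone (−1.90, limma adjusted p = 0.107). *Polk* rests on few reads in P53-/- 2i, an estimated 29 to 34 fragments with its longest coding transcript and 5 with its shortest.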
